A study of Mus musculus with 5 samples.

Results

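Synaptic adhesion genes code for the membrane proteins and secreted ligands by which nerve cells recognise each other and build synapses. A list of 40 such genes, out of 32286 feature identifiers in the count matrices, was followed in the tumour cells of 5 mouse synovial sarcomas (SyS). The genes were chosen by symbol and all 40 were found. They comprise 3 adhesion G protein-coupled receptors of the BAI type, 3 latrophilins, 4 teneurins, 3 cerebellins with 1 delta-type glutamate receptor, 4 neurexophilins, 2 neurexins, 3 neuroligins, 4 receptor tyrosine phosphatases, 2 IL1RAPL proteins, 4 LRRTM and 3 SLITRK leucine-rich repeat proteins, 1 netrin-G with 1 of its ligands, and Kirrel3 and Cntnap2.

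All 5 tumours arose in the limbs of mice that carry the hSS2 allele, in which human SS18::SSX2 is expressed from the Rosa26 locus after injection of TATCre, a cell-permeable Cre recombinase, and they were collected when the animals became moribund. The labels give histology as biphasic (BP, 2 tumours), monophasic (MP, 1), both (MP+BP, 1) and poorly differentiated with monophasic areas (PD+MP, 1). Part of each tumour was dissociated into single cells, so the cells sequenced and the tissue graded by histology are neighbouring pieces. No normal tissue was analysed here, so tumour cells were compared with other cells of the same tumours and, at the end, between tumours. The mice were of a mixed strain given as CB57Bl/6-svJ and of both sexes, aged 2 to 6 months, and TATCre was injected at 8 days of life. The paper and the labels do not tie these details to single tumours.

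At a synapse these proteins act in pairs that reach across the gap between cells. Neurexins bind neuroligins and LRRTM proteins directly, and they bind delta-type glutamate receptors through secreted cerebellins. Teneurins and FLRT proteins bind latrophilins, C1q-like proteins bind the BAI-type receptor ADGRB3, and phosphatases of the LAR type (PTPRD, PTPRS and PTPRF) bind SLITRK and IL1RAPL proteins. Many of the same molecules guide axons and migrating cells in the embryo. In synovial sarcoma the SS18::SSX fusion takes the place of SS18 in chromatin-remodelling complexes of the BAF family, and the tumour is known to express developmental and neural genes outside the nervous system.

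The matrices held 51670 cells and between 89996321 and 118649103 unique molecular identifiers (UMIs, each 1 captured RNA molecule) per tumour, of which 39335 cells passed the filters. Clusters were named from marker genes, and none of the 40 genes was used for clustering or naming. There were 23069 SyS-like cells in 14 clusters (2488 to 5963 per tumour), 1396 stromal cells (1248 pericyte-like and 148 fibroblast-like), 2418 endothelial-like cells and 3873 macrophage-like cells. An EGFP entry in the matrices, kept out of the clustering, stood at 31.3 to 42.8 counts per 1000000 UMIs (CPM) in SyS-like cells and at no more than 8.97 CPM in the 3 other classes. Another 7454 cells in 5 clusters had most of their markers from the SyS list but stayed unnamed. Their leading genes held a pericyte marker (Acta2, in a cluster of 3053 cells), haemoglobin markers or a neutrophil marker, or their UMI counts were low. These unnamed cells made up 27.8% and 33.5% of the kept cells of BP replicates 1 and 2, 11.5% of MP, 13.9% of MP+BP and 6.84% of PD+MP. The sums compared were unequal in depth, at 51583908 to 73171672 UMIs in SyS-like cells against 720902 to 2742015 in stromal, 579508 to 5602759 in endothelial-like and 2573700 to 6504987 in macrophage-like cells. In MP+BP the stromal sum held the markers of SyS-like cells at a median of 15.03% of their SyS-like level, against 3.16% to 8.17% in the stromal sums of the other tumours. The part of this signal in the comparisons with stromal cells was not tested.

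The promoters of 4 genes on which the results turn are shown here as RefSeq gives them for build GRCm38.p6, from 250 bases before to 50 bases after a start that RefSeq annotates, because CpG-rich promoters are the kind that polycomb complexes occupy. Capitals mark CG, which reads the same on both strands. Adgrb3 and Il1rapl2 differ in opposite directions between the tumour cell populations described at the end, and Cbln4 and Nxph1 code for secreted ligands.
Adgrb3 (chr1:25829658-25829957, minus strand): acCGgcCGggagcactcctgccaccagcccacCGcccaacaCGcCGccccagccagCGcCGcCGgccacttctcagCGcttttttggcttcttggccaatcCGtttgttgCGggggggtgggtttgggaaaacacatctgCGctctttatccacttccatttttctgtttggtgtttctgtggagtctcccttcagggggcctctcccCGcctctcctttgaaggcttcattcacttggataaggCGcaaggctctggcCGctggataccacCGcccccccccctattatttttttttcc
Il1rapl2 (chrX:137570504-137570803, plus strand): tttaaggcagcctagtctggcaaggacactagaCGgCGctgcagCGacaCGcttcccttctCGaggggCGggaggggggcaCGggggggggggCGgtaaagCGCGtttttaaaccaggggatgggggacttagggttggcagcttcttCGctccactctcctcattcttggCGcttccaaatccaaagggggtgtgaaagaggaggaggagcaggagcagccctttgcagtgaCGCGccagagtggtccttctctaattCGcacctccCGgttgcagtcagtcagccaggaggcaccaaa
Cbln4 (chr2:172043417-172043716, minus strand): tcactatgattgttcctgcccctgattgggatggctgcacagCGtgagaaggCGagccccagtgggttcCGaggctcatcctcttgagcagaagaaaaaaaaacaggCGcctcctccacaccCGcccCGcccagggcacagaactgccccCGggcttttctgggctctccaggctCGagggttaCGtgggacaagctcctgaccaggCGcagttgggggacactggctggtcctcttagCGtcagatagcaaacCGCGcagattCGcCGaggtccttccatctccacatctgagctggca
Nxph1 (chr6:8949769-8950068, plus strand): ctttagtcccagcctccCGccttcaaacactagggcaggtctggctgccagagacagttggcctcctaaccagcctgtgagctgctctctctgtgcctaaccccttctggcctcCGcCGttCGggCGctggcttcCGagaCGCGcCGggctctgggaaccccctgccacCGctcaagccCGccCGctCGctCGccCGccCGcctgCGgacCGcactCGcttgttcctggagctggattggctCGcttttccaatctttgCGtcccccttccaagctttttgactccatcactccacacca
The Adgrb3 window holds 16 CG, a number reached by 33.0% of the 32851 promoters in the table. Il1rapl2 holds 16 as well, Cbln4 15 (34.6%) and Nxph1 21 (24.8%). Of the 40 genes 29 have an entry, which is under the 80% needed for a statement over the list, so none is made. Among those with an entry, Ptprt has the most CG with 46 (reached by 1.65% of promoters). RefSeq and GENCODE do not always place a start alike. The RefSeq starts of Adgrb3 and Cbln4 are those of GENCODE, and those of Il1rapl2 and Nxph1 lie 146 and 1588 bases inside the GENCODE gene.

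The first question was whether tumour cells carry more of these transcripts than the other cells of the same tumours. Of the 37 genes that could be tested against stromal cells, 26 were higher in SyS-like cells and 0 were lower at an adjusted p under 0.05 (edgeR quasi-likelihood test on sums per tumour, tumour as a block, adjusted over all genes). Over all 17150 genes tested, 15.4% were higher and 8.31% lower. Without MP+BP, whose stromal sum had the highest share of the SyS marker signal, 25 were higher. The median log2 fold change was 2.81 over the list and 0.24 over all genes. Here and below, class-comparison shares and medians over all genes leave out the 3000 clustering features. The listed genes were kept out of clustering by name, so none was left out in this way. The list was also chosen with earlier results of these data known. List and background were thus not selected alike, and how far this widens the gap between them was not tested. Against endothelial-like cells 33 of 37 were higher and 1, Adgrl2, was lower, beside 31.6% and 17.9% of all genes. The medians were 4.03 and 0.27, and the first became 3.998 with Lrrtm1, at 0 UMIs in endothelial-like cells, set to its lower bound. Against macrophage-like cells 33 of 36 were higher and 0 lower, beside 38.0% and 21.2% of all genes, with medians of 3.95 and 0.38. The 3 comparisons share the SyS-like sums. In all of them together, 25 of the 36 genes that could be tested each time were higher, against 10.2% of all genes. A gene could enter a comparison through its counts in the deeper SyS-like sums alone, on the list and among all genes alike. With at least 10 counts required in every sum, 3 genes (Adgrb3, Ptprd and Kirrel3) were still higher in all 3 comparisons. The rest of the 25 were then too scarce in some sum to be tested each time. Without scaling beyond library totals, the median of all genes moved up by 0.23, 0.21 and 0.58 in the same order and the counts for the list became 26, 34 and 34, beside 25.5%, 41.0% and 59.0% of all genes tested. The share of higher calls among all genes called then moved from 65.000% to 79.6% against stromal, from 63.8% to 73.7% against endothelial-like and from 64.2% to 83.4% against macrophage-like cells.

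**Figure D1:**
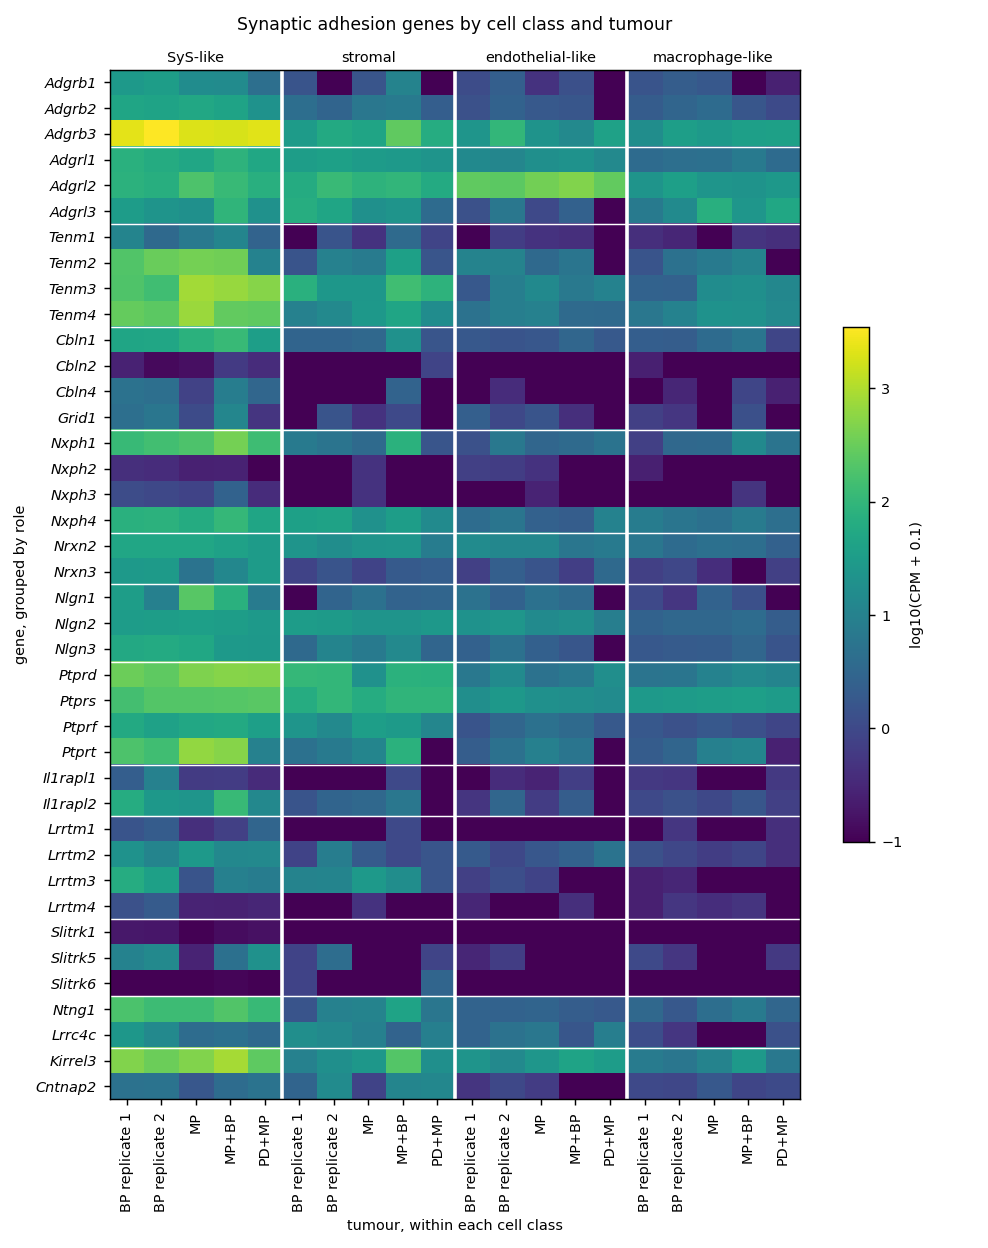
Level of each of the 40 genes (rows, grouped by role, white lines between groups) in each tumour and cell class (columns), as log10 of CPM plus 0.1. The 5 columns of SyS-like cells on the left are brighter than the rest for most rows, from 1851 to 3464 CPM for Adgrb3, while Cbln2, Nxph2, Slitrk1 and Slitrk6 are under 1 CPM in SyS-like cells of every tumour.

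**Figure D2:**
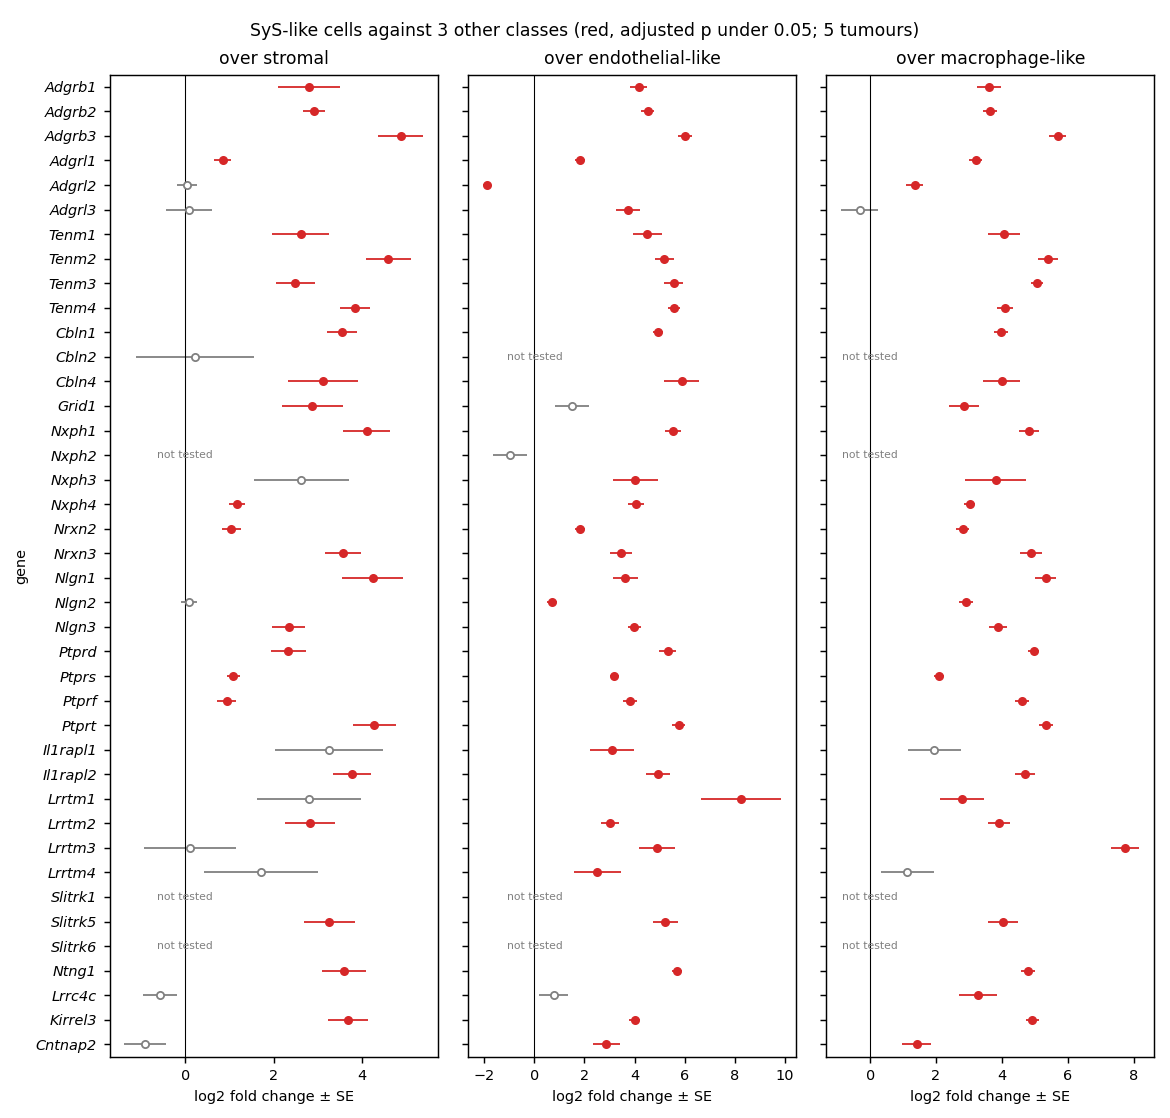
Log2 fold change of SyS-like over stromal, endothelial-like and macrophage-like cells for each gene, with its standard error (bars) over 5 tumours. Filled red points passed an adjusted p of 0.05 and open grey points did not. Adgrl2 against endothelial-like cells is the red point to the left of 0.

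Levels are given below in CPM in the order BP replicate 1, BP replicate 2, MP, MP+BP and PD+MP. Fold changes are log2 values ± SE from the fit, n = 5 tumours, and FDR stands for the edgeR p after Benjamini-Hochberg adjustment over all genes. Levels are not compared between genes, since long genes can gather UMIs primed within introns and 22 of the 40 span over 100 kb.

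Adgrb3 codes for the BAI-type receptor of C1q-like proteins and spans 762 kb on chromosome 1. Its level in SyS-like cells was 2213, 3464, 1996, 1851 and 2123 CPM. The highest value in any other class was 267 CPM, in the stromal cells of MP+BP, so the SyS-like values did not overlap with the rest. The fold change was 4.88 ± 0.51 over stromal (FDR = 0.000199), 6.01 ± 0.28 over endothelial-like (FDR = 1.11e-07) and 5.69 ± 0.25 over macrophage-like cells (FDR = 4.78e-09). After thinning every cell to 2000 UMIs, a UMI of Adgrb3 was found in 82.1% of SyS-like cells on average over the tumours (72.5% to 85.9%), against 4.74% of stromal, 4.37% of endothelial-like and 4.99% of macrophage-like cells. Adgrb2, a related receptor, stood at 46.1, 42.1, 51.8, 42.4 and 20.4 CPM, above every value of the other classes (at most 7.18 CPM), and was higher in all 3 comparisons, by 2.92 ± 0.25 over stromal cells (FDR = 7.06e-05). Adgrb1, known as a receptor for apoptotic cells as well as at synapses, stood at 28.7, 33.9, 15.8, 15.2 and 4.39 CPM. It was higher in all 3 comparisons, but its value in PD+MP lay under the 10.8 CPM of the MP+BP stromal cells, and the call against stromal cells (2.81 ± 0.71, FDR = 0.0175) was lost without BP replicate 1, BP replicate 2 or MP in turn (FDR = 0.0764, 0.0513 and 0.0564).

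The C1q-like ligands of ADGRB3 are not among the 40 genes but were followed as partners. C1ql1 stood at 16.7, 12.2, 48.7, 60.1 and 12.1 CPM in SyS-like cells and C1ql3 at 17.2, 11.6, 54.01, 48.4 and 27.8 CPM. Both, and C1ql4, were higher than in each other class, with fold changes over stromal cells of 3.15 ± 0.47 (FDR = 0.00137), 2.68 ± 0.28 (FDR = 0.000209) and 3.15 ± 0.63 (FDR = 0.0059). C1ql2 never reached 1 CPM. Receptor and ligand transcripts were therefore both present in the tumour cells of every tumour for C1ql1 and C1ql3.

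All 4 teneurins, large transmembrane proteins with a beta-propeller and a barrel-shaped domain outside the cell, were higher in SyS-like cells in all 3 comparisons. Tenm3 stood at 198, 142, 823, 692 and 513 CPM, Tenm4 at 287, 253, 712, 277 and 259.9 CPM, Tenm2 at 207, 314, 385, 364 and 10.3 CPM and Tenm1 at 10.95, 3.51, 6.78, 11.8 and 2.66 CPM. Over stromal cells the fold changes were 2.49 ± 0.45 (FDR = 0.00349), 3.84 ± 0.34 (FDR = 8.29e-05), 4.60 ± 0.51 (FDR = 0.000287) and 2.61 ± 0.65 (FDR = 0.0163) in the same order. Each teneurin had its own ranking of the tumours. Tenm2 in PD+MP was 37.5 times lower than in MP, and its 10.3 CPM there overlapped with the levels in other classes. Tenm3 was lowest in the 2 BP tumours, and Tenm4 in MP stood apart from the 4 other tumours, which lay between 253 and 287 CPM. The Tenm1 call against stromal cells was lost without BP replicate 1 (FDR = 0.05002) or without MP (FDR = 0.0675).

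The latrophilins, receptors of teneurins and FLRT proteins, did not follow one pattern. Adgrl1 stood at 75.1, 62.9, 49.05, 84.5 and 49.7 CPM and was higher than in every other class, by 0.85 ± 0.19 over stromal cells (FDR = 0.0114) and 3.20 ± 0.19 over macrophage-like cells (FDR = 4.98e-08). Adgrl2 stood at 81.3, 70.6, 184, 116 and 71.9 CPM in SyS-like and at 269, 250.1, 374, 474 and 276 CPM in endothelial-like cells, ranges that did not overlap. It was the 1 gene of the list that was lower in tumour cells (-1.90 ± 0.16, FDR = 6.76e-06). The difference from stromal cells was 0.04 ± 0.23 (FDR = 0.916), and Adgrl2 was higher than in macrophage-like cells (1.35 ± 0.26, FDR = 0.000765). A UMI of Adgrl2 was found in 41.9% of thinned endothelial-like cells and in 16.8% of SyS-like cells. Adgrl3 stood at 32.8, 22.7, 19.1, 94.8 and 19.9 CPM and was higher only than in endothelial-like cells (3.75 ± 0.48, FDR = 0.000112), where it was at most 6.22 CPM. Its stromal range of 3.69 to 66.3 CPM and its macrophage-like range of 7.07 to 73.98 CPM overlapped with the tumour cells.

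Of the other ligands of latrophilins, Flrt1 stood at 157, 159, 87.4, 93.1 and 76.5 CPM, Flrt2 at 113, 68.4, 113, 229 and 53.4 CPM and Flrt3 at 60.9, 39.4, 76.8, 78.1 and 68.9 CPM. Flrt1 and Flrt3 were higher in all 3 comparisons, with 3.59 ± 0.43 (FDR = 0.000409) and 3.11 ± 0.28 (FDR = 9.55e-05) over stromal cells. Flrt2 did not pass against stromal cells (2.35 ± 0.87, FDR = 0.0744), where PD+MP, the tumour with 122 of the 148 fibroblast-like cells, had 177 CPM and the other tumours at most 41.3 CPM.

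Neurexins are presynaptic organisers from which several of these ligands hang. Nrxn2 stood at 48.7, 49.3, 47.8, 39.9 and 30.6 CPM and Nrxn3 at 28.7, 29.9, 5.17, 12.5 and 30.6 CPM in SyS-like cells. Both were higher in all 3 comparisons. Nrxn2 differed less from stromal cells (1.05 ± 0.22, FDR = 0.00705) and Nrxn3 by 3.58 ± 0.40 (FDR = 0.000304).

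The secreted ligands of neurexins were Cbln1, Cbln4 and the neurexophilins. Cbln1, the cerebellin of the parallel fibre synapse, stood at 47.2, 47.6, 78.5, 114 and 35.1 CPM and was higher by 3.56 ± 0.33 over stromal cells (FDR = 0.000109), 4.94 ± 0.22 over endothelial-like (FDR = 7.57e-08) and 3.98 ± 0.21 over macrophage-like cells (FDR = 2.29e-08). Its lowest SyS-like value lay above the highest value of any other class, 19.7 CPM. Cbln4 was scarce, at 5.14, 4.44, 0.683, 8.46 and 3.01 CPM, or 1409 UMIs in all, and rarer still elsewhere, with 3 UMIs in stromal, 1 in endothelial-like and 4 in macrophage-like cells. The ratio to stromal cells, in CPM summed over tumours, was 10.4 (95% counting interval 3.56 to 50.5), and the ratio to endothelial-like cells 76.01 (95% counting interval 13.6 to 3004). The call against stromal cells (FDR = 0.0184) was lost without the tumour block (FDR = 0.0568) and without BP replicate 1 (FDR = 0.0688) or BP replicate 2 (FDR = 0.0548). Cbln2 had 68 UMIs in SyS-like cells and did not pass against stromal cells (FDR = 0.939), the comparison in which it could be tested.

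Nxph1, a secreted glycoprotein that binds alpha-neurexins, stood at 114, 148, 190.4, 390.3 and 133 CPM in SyS-like cells. Outside tumour cells it reached 80.8 CPM in the stromal cells of MP+BP and at most 14.4 CPM elsewhere, so no range overlapped with the tumour cells. It was higher by 4.11 ± 0.53 (FDR = 0.000646), 5.54 ± 0.32 (FDR = 4.32e-07) and 4.81 ± 0.31 (FDR = 1.01e-07) over stromal, endothelial-like and macrophage-like cells. Nxph4 stood at 76.8, 81.4, 63.2, 105 and 46.7 CPM and was higher in all 3 comparisons, by 1.18 ± 0.18 over stromal cells (FDR = 0.00158). Nxph3 was at 0.270 to 2.56 CPM and passed against endothelial-like and macrophage-like cells but not stromal cells (FDR = 0.101), each of which held 1 UMI. Nxph2 was under 1 CPM in every tumour.

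Delta-type glutamate receptors complete the bridge of neurexin and cerebellin. Grid1 was at 0.398 to 12.2 CPM, under 1 CPM in MP and PD+MP. It was higher than in stromal cells, which held 3 UMIs (ratio 11.7 (95% counting interval 3.98 to 56.6), FDR = 0.0146), and in macrophage-like cells (FDR = 0.000198), but not than in endothelial-like cells (FDR = 0.0831). The stromal call was lost without the tumour block, with doublets kept, or without BP replicate 1 or MP+BP (FDR = 0.0539 to 0.0911).

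Among neuroligins, the postsynaptic receptors of neurexins, Nlgn1 and Nlgn3 were higher in tumour cells in all 3 comparisons. Nlgn1 stood at 33.01, 9.23, 232, 76.3 and 7.54 CPM, 30.7 times higher in MP than in PD+MP, and differed by 4.25 ± 0.69 from stromal cells (FDR = 0.00217). Part of its span on chromosome 3 is shared with another annotated gene on the same strand, Gm37573, and reads in the shared part cannot be told apart. Nlgn3 stood at 53.7, 58.5, 49.8, 27.7 and 26.3 CPM and differed by 2.35 ± 0.37 (FDR = 0.00184). Nlgn2, known from inhibitory synapses, varied least between tumours of the 29 genes with at least 1 CPM in each, at 31.6, 34.1, 36.5, 33.7 and 26.8 CPM. It did not pass against stromal cells (0.09 ± 0.18, FDR = 0.763), and its call against endothelial-like cells (0.72 ± 0.20, FDR = 0.0134) was lost without MP (FDR = 0.0700) and with SyS-like sums thinned to equal depth (FDR = 0.0506). Its partner Mdga1, a protein that blocks neuroligin from binding neurexin, stood at 58.7, 50.7, 52.4, 78.000 and 37.8 CPM and was higher in all 3 comparisons (2.16 ± 0.26 over stromal cells, FDR = 0.000482).

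Of the LRRTM proteins, which compete with neuroligins for neurexins, Lrrtm2 stood at 20.6, 11.1, 28.2, 13.3 and 13.7 CPM and was higher in all 3 comparisons (2.83 ± 0.56 over stromal cells, FDR = 0.00591). Lrrtm3 stood at 63.5, 37.8, 1.42, 9.37 and 8.11 CPM in SyS-like and at 10.6, 11.1, 27.7, 17.05 and 1.48 CPM in stromal cells. The SyS-like value was the higher of the pair in the 2 BP tumours and in PD+MP, and the stromal value in MP and MP+BP, and the difference did not pass (0.10 ± 1.04, FDR = 0.96). Against macrophage-like cells, with 2 UMIs, the ratio was 256 (95% counting interval 70.8 to 2114). Lrrtm1 (0.314 to 2.901 CPM) and Lrrtm4 (0.175 to 1.92 CPM) were low. Lrrtm4 passed against endothelial-like cells alone (FDR = 0.0465; FDR = 0.0635 to 0.297 in DESeq2 and without BP replicate 1, MP or PD+MP). Lrrtm1 passed against endothelial-like cells, which held 0 UMIs, and was at least 8.58-fold higher there, taking 3 UMIs over the whole class as the limit that a count of 0 allows. It also passed against macrophage-like cells, with 4 UMIs (ratio 8.53 (95% counting interval 3.31 to 31.4)).

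The receptor phosphatases were higher in tumour cells in all 3 comparisons, all 4 of them. Ptprd, which spans 2271 kb on chromosome 4, stood at 335, 263, 457, 519 and 496 CPM, Ptprs at 154, 208, 211, 217 and 237 CPM and Ptprf at 58.2, 39.6, 52.8, 57.3 and 35.7 CPM. None of the stromal ranges (20.1 to 106, 63.5 to 101 and 11.8 to 34.6 CPM) reached into these. The fold changes over stromal cells were 2.33 ± 0.40 (FDR = 0.00269), 1.09 ± 0.15 (FDR = 0.00089) and 0.93 ± 0.22 (FDR = 0.0119), the last lost without the tumour block (FDR = 0.0642). Ptprt, a phosphatase that binds itself across cells, stood at 187, 143, 642, 519 and 9.63 CPM, with the value in PD+MP 66.7 times under that in MP. This was the widest spread between tumours among the 29 genes with at least 1 CPM in each. Its fold change over stromal cells was 4.28 ± 0.49 (FDR = 0.000321), although PD+MP overlapped with the stromal range of 0 to 79.9 CPM.

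The partners of the LAR-type phosphatases were unevenly present. Slitrk5 stood at 10.2, 13.9, 0.178, 4.63 and 19.6 CPM and Slitrk2, outside the list, at 15.3, 19.4, 11.1, 20.3 and 23.3 CPM. Both were higher in all 3 comparisons, with 3.27 ± 0.59 (FDR = 0.00361; FDR = 0.0653 without the tumour block) and 3.19 ± 0.48 (FDR = 0.0014) over stromal cells. Slitrk1 and Slitrk6 had 18 and 1 UMIs in SyS-like cells and could not be tested in any comparison. Il1rapl2 stood at 64.4, 26.7, 23.6, 112 and 13.1 CPM and was higher in all 3 comparisons (3.78 ± 0.43 over stromal cells, FDR = 0.000327), without overlap. Il1rapl1 stood at 2.21, 9.92, 0.519, 0.539 and 0.256 CPM, most of it in BP replicate 2. It passed against endothelial-like cells (FDR = 0.0135) but not with doublets kept, in DESeq2, without the tumour block or without either BP tumour (FDR = 0.0617 to 0.162), and not against macrophage-like (FDR = 0.0501) or stromal cells (FDR = 0.0797). Lrrc4b, a partner of PTPRF, stood at 6.28, 10.01, 20.2, 4.21 and 1.52 CPM and was higher in all 3 comparisons, with 2 UMIs in stromal cells (ratio 31.9 (95% counting interval 8.82 to 264)).

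Ntng1, a netrin anchored in the membrane of axons, stood at 178, 127, 131, 205 and 113 CPM and was higher by 3.60 ± 0.49 over stromal cells (FDR = 0.000846), 5.70 ± 0.21 over endothelial-like (FDR = 2.85e-08) and 4.79 ± 0.22 over macrophage-like cells (FDR = 6.11e-09), with no overlap. Its receptor Lrrc4c stood at 24.99, 13.4, 3.87, 4.65 and 3.47 CPM and passed against macrophage-like cells alone (3.28 ± 0.57, FDR = 0.000396). Ntng2 stood at 41.3, 34.6, 48.6, 49.5 and 27.1 CPM and was higher in all 3 comparisons. The receptor of netrin-G2, Lrrc4, stood at 47.6, 56.8, 37.8, 53.3 and 56.6 CPM and passed in none of the 3 (FDR = 0.507, 0.135 and 0.264).

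Kirrel3, an immunoglobulin-type adhesion protein that binds itself between cells, stood at 484, 331, 483, 835 and 262 CPM, above the 207 CPM of the MP+BP stromal cells and the at most 42.6 CPM elsewhere. Its fold changes were 3.69 ± 0.45 (FDR = 0.000493), 3.998 ± 0.21 (FDR = 2.07e-07) and 4.92 ± 0.20 (FDR = 2.78e-09) over stromal, endothelial-like and macrophage-like cells. Cntnap2, a neurexin relative that clusters potassium channels along axons, stood at 5.14, 5.37, 1.599, 3.85 and 5.205 CPM. It was higher than in endothelial-like (FDR = 0.00126) and macrophage-like cells (FDR = 0.0158; lost with doublets kept or without either BP tumour, FDR = 0.0658 to 0.0806), while the stromal value was 0.729 to 15.3 CPM and the difference did not pass (-0.91 ± 0.47, FDR = 0.183).

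The rest of the pathway was read from 3 lists. Of 32 further partners, 13 were higher in all 3 comparisons, beside 10.2% of all genes: C1ql1, C1ql3, C1ql4, Flrt1, Flrt3, Mdga1, Mdga2, Slitrk2, Lrrc4b, Ntng2, Lrfn4, Clstn2 and Cntnap1. Clstn2, a calsyntenin, differed by 3.20 ± 0.48 from stromal cells (FDR = 0.0014). Against stromal cells 13 of the 30 partners tested were higher and 3 lower, beside 15.4% and 8.31% of all genes, a background that holds for each of the stromal counts that follow. Of 18 scaffold genes, whose proteins hold these receptors inside the cell, 6 were higher and 1 was lower than in stromal cells, and 4 (Dlg2, Dlg3, Magi2 and Shank1) were higher in all 3 comparisons. Of 15 genes of synaptic vesicles and transmitter release, 4 were higher and 2 lower than in stromal cells with a median log2 fold change of -0.03, and 3 (Syt1, Syp and Pclo) were higher in all 3 comparisons. Against macrophage-like cells 13 of 14 vesicle genes tested were higher, beside 38.0% of all genes.

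Because nerve cells and Schwann cells use the same adhesion genes, their markers were read in each class. The 7 neuron markers summed to 32.1 to 228 CPM in SyS-like cells, 2.95 to 52.9 CPM in stromal, 6.998 to 25.9 CPM in endothelial-like and 1.26 to 8.94 CPM in macrophage-like cells. None of the 7 was at 0 in SyS-like cells, where Slc17a6, the vesicular glutamate transporter of many excitatory neurons, had 10 UMIs. The 6 Schwann cell markers summed to 9.31 to 16.3 CPM in SyS-like cells and to 6.56 to 17.7, 3.21 to 6.4997 and 21.4 to 29.8 CPM in the other classes in the same order, so their levels in tumour cells lay within the span of the other classes. The part of either cell type in the results was not tested.

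The list was also read as 62 ligand and receptor pairs. Both partners reached 1 CPM in the SyS-like cells of all 5 tumours for 39 pairs, against 26 pairs in stromal, 11 in endothelial-like and 19 in macrophage-like cells, whose sums were shallower. These include all 6 pairs of neuroligins with Nrxn2 and Nrxn3, all 12 of teneurins with latrophilins and all 9 of FLRT proteins with latrophilins. For cerebellins it held for 2 of 9 pairs, those of Cbln1 with Nrxn2 and Nrxn3, and for the neurexophilins for the 2 pairs of Nxph1. The 14 pairs of phosphatases gave 3, namely Ptprd and Ptprs with Slitrk2 and Ptprf with Lrrc4b. For 24 of the 62 pairs both partners were higher in tumour cells in all 3 comparisons. Many genes recur across the pairs, so this count in part repeats the single-gene calls. For single genes the share over all genes was 10.2%. No share over pairs of other genes was taken, for this count or for those at 1 CPM. Stromal cells held 9 of the 12 pairs of teneurins with latrophilins and all 9 of FLRT proteins with latrophilins at the same level. Transcripts of both partners in a class do not show that the proteins meet.

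**Figure D3:**
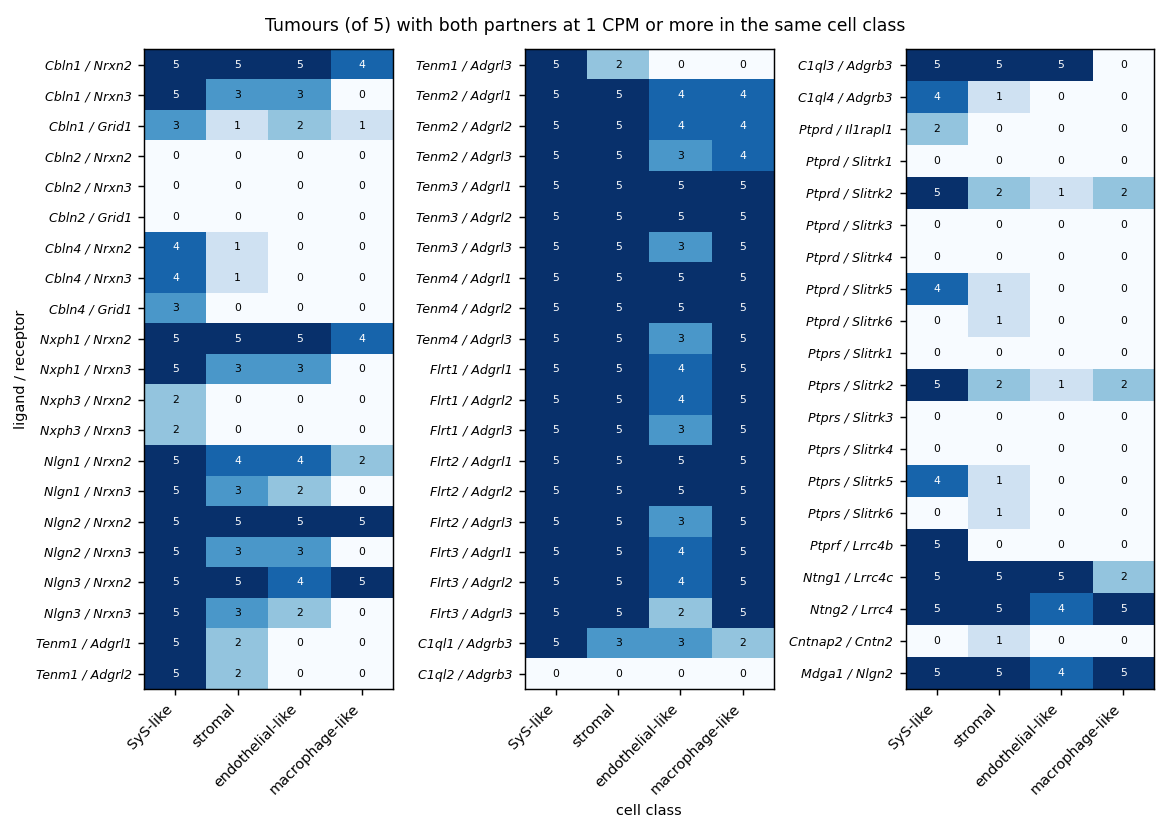
Number of tumours, out of 5, in which both partners of a ligand and receptor pair reached 1 CPM in the same cell class (62 pairs in rows, 4 classes in columns, darker for more tumours). SyS-like cells show 5 of 5 tumours for 39 pairs, and pairs with Cbln2, Cbln4, Slitrk1 or Slitrk6 do not reach 5 in any class.

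The tumours were next compared with each other by their labels. Among the 29 genes with at least 1 CPM in the tumour cells of all 5 tumours, the highest value was a median of 3.19 times the lowest. It was over 10 times for Ptprt, Lrrtm3, Tenm2 and Nlgn1 and under 2 times for 8 genes, among them Adgrb3, Ptprd and Ntng1. The 4 genes with the widest spread did not rank the tumours alike. Ptprt, Tenm2 and Nlgn1 were highest in MP and lowest in PD+MP, whereas Lrrtm3 was highest in BP replicate 1 and lowest in MP. These levels pool all SyS-like cells of a tumour. For Ptprt and Nlgn1 the tumours ranked otherwise in a part of these cells described below. Uty, a gene of the Y chromosome, was a leading gene of a SyS-like cluster of 1726 cells, all from PD+MP. It was also a leading gene of another SyS-like cluster, with 1416 of 1422 cells from PD+MP. The sex of each animal is not given, and the part of sex in the differences between tumours was not tested. BP replicates 1 and 2 themselves differed by 3.58 times for Nlgn1 (33.0 and 9.23 CPM) and by 4.49 times for Il1rapl1. The label BP split the tumours 3 to 2, and their SyS-like sums were compared along that split (a split by MP in the label was not tested). Of 38 genes tested 0 passed (edgeR, smallest adjusted p 0.452), and 7 had an unadjusted p under 0.05. Over all 18121 genes 0.0% passed in either direction, with 1555 under an unadjusted p of 0.05. DESeq2 called 1 of the 40, Grid1 (log2 fold change 3.37 ± 0.62, adjusted p = 1.61e-05), among 336 of 24112 genes.

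Within the tumours, SyS-like cells were not uniform for these genes. A pair of clusters with Penk, Cartpt and Bmp5 among their leading genes, chosen after the values had been seen, held 2250 of the 23069 SyS-like cells and occurred in every tumour, as 7.92%, 12.2%, 2.55%, 20.4% and 3.74% of the SyS-like cells in the order used above. Collagen genes were higher there, with Col1a1 at 870 to 3033 CPM against 8.05 to 303 CPM in the other SyS-like cells of the same tumours. Epithelial genes did not move alike. Epcam, an epithelial adhesion gene, was lower in 5 of 5, whereas Krt8, a keratin gene, was higher in 4 of 5. Krt8 was scarce, at 2.50 to 13.3 CPM (124 UMIs) against 0.180 to 12.8 CPM. The EGFP entry was at 26.0 to 43.7 CPM in these clusters and at 30.3 to 43.3 CPM in the other SyS-like cells. It was at most 8.97 CPM in the stromal, endothelial-like and macrophage-like sums. Values are given as a description, with no test, because the clusters were drawn from the same cells.

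Adgrl3 in the Penk clusters stood at 447, 220.3, 255, 323 and 499 CPM, against 17.1, 10.8, 16.4, 62.5 and 9.74 CPM in the other SyS-like cells. Adgrl3, which did not pass against stromal cells over all tumour cells, was thus 5.16 to 51.2 times higher in this population in 5 of 5 tumours. Il1rapl2 (285, 129, 325, 361 and 206 against 56.04, 20.6, 20.3, 77.2 and 9.06 CPM), Tenm3 (1586, 1595, 1141, 1025 and 1175 against 145, 55.1, 819, 644 and 498 CPM) and Ptprd (852, 801, 996, 920.3 and 649 against 315, 231, 451, 462 and 492 CPM) were also higher in 5 of 5. Cbln4 was at 32.9, 19.5, 18.7, 22.5 and 102 CPM against 4.08, 3.53, 0.484, 6.47 and 0.915 CPM, so that 493 of its 1409 UMIs came from 2250 of the 23069 cells. Part of this pattern also occurred outside the Penk clusters. Another SyS-like cluster of 1412 cells, 92.4% of them from MP+BP, with Cpvl, Npnt and Trpm3 among its leading genes, held 305 UMIs of Cbln4 (24.5 CPM), with Adgrl3 at 233, Il1rapl2 at 212 and Tenm4 at 103 CPM. In that cluster Tenm3 stood at 637, Ptprd at 366, Kirrel3 at 489 and Cbln1 at 119.9 CPM.

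In the opposite direction, Adgrb3 stood at 301, 182, 1358, 1120.0 and 1002 CPM in the Penk clusters, against 2285, 3661, 2003, 1954 and 2146 CPM in the other SyS-like cells. It was lower in 5 of 5 tumours, most of all in the 2 BP tumours. Kirrel3 (122, 55.2, 194, 173 and 224 against 498, 348, 486, 928 and 263 CPM), Tenm4 (88.5, 111, 124, 98.7 and 89.7 against 295, 262, 718, 302 and 264 CPM) and Cbln1 (22.3, 17.2, 28.7, 22.5 and 30.1 against 48.1, 49.5, 79.1, 127 and 35.2 CPM) were lower in 5 of 5 as well. Tenm3 and Tenm4, and likewise Cbln4 and Cbln1, thus took opposite directions within their families. Nlgn1 stood at 35.0, 27.6, 215, 254 and 310 CPM in the Penk clusters, against 32.9, 8.13, 232, 51.2 and 1.13 CPM in the other SyS-like cells. Ptprt stood at 195, 148, 41.2, 102 and 141 CPM, against 187, 143, 648, 578 and 6.84 CPM. In the Penk clusters Nlgn1 was thus highest in PD+MP and Ptprt lowest in MP. Of the 31 genes with at least 1 CPM in every tumour on either side, 5 were higher and 7 lower in all 5 tumours, or 16.1% and 22.6%. Over 14376 genes with the same minimum the shares were 14.9% and 18.6%, so the number of genes that moved was near that of all genes. Median UMI counts per cell in the Penk clusters were 5117 to 7454, against 8960 to 15590 in the other SyS-like cells.

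**Figure D4:**
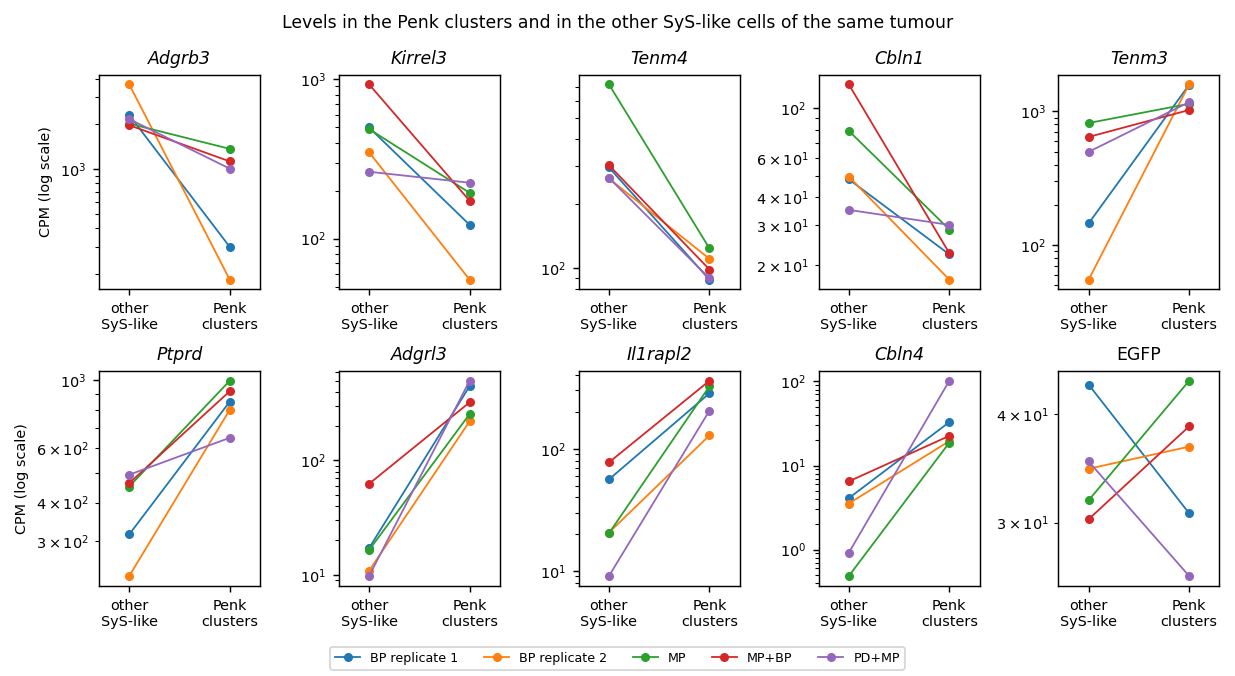
CPM (log axis) in the other SyS-like cells (left point) and in the Penk clusters (right point) of each tumour (colours), 1 line per tumour and 1 panel per gene. Lines fall in 5 of 5 tumours for Adgrb3, Kirrel3, Tenm4 and Cbln1, rise in 5 of 5 for Tenm3, Ptprd, Adgrl3, Il1rapl2 and Cbln4, and stay between 26.0 and 43.7 CPM for the EGFP entry.

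Shares of cells with a UMI, after thinning to 2000 UMIs, were the last measure. In SyS-like cells they averaged 46.6% for Ptprd, 43.96% for Tenm3, 40.2% for Kirrel3, 23.6% for Nxph1 and 1.05% for Cbln4 over the 5 tumours. In macrophage-like cells the same shares were 1.52%, 1.76%, 2.05%, 0.798% and 0.0216%. The highest shares in that class among the 40 genes were 5.90% for Ptprs, 4.99% for Adgrb3, 4.39% for Adgrl2 and 4.28% for Adgrl3. Whether the values in macrophage-like cells are a background of this measure was not tested. Thinning left out 747 of 23069 SyS-like and 188 of 3873 macrophage-like cells as too shallow. Median UMI counts before thinning were 8169 to 14800.5 per tumour in SyS-like and 4313.5 to 6649.5 in macrophage-like cells.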

How the data were processed

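Per the file headers, the authors deposited filtered matrices of called cells from Cell Ranger 7.2.0 (build mm10), with an unnormalized UMI count for each gene in each cell. Libraries came from Chromium 3′ v3.1 chemistry. Whether reads in introns were counted is not given in the sources used here. Coordinates are from GENCODE M21 (GRCm38), which held 32158 of 32286 identifiers, and promoters from RefSeq. The 40 genes, their role groups, pairs and pathway lists were chosen with earlier results of these data known, and some partner genes are not reported here.

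Cells with at least 750 genes and at most 25% mitochondrial UMIs were kept (the study's limits). The highest Scrublet scores up to the expected doublet share were removed (392 to 929 cells per tumour). Clustering used 3000 features without the genes followed here, 30 principal components and Leiden resolution 1 (scanpy 1.11.5). Clusters were called X-like from marker lists and their names are rebuilt here.

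Counts were summed per tumour and class. edgeR 4.0.16 (TMM, filterByExpr, quasi-likelihood) compared SyS-like sums with each other class of the same tumours, with the tumour as a block, and SyS-like sums with and without BP in the label. Benjamini-Hochberg adjustment ran over all genes and clustering features were left out of counts over all genes. The genes followed here could not be clustering features, so this removal touched the background alone. The pairing comes from the tumour itself. DESeq2 1.42.0 was an alternative, and the fits were tested on simulated data. Per-tumour values are given for genes called in all 3 class comparisons and for pair genes with at least 1 CPM in the SyS-like cells of every tumour, and the rest by range. The labels number no replicates, so BP replicates 1 and 2 follow accession order. Their counts differed beyond sampling noise (median chi-square 5.28 over 20019 genes against 0.455). The titles of both BP tumours share a leading number that no other title carries. Whether they come from 1 animal is not stated, so p-values may in part measure technical spread. Binomial and counting intervals cover counting error only. Libraries shared 15 to 33 cell barcodes. Fewer cells of a state and less RNA per cell cannot be told apart in sums.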

Additional observations from a re-analysis of the deposited data

Results flagged for a closer look

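Each gene's level in SyS-like cells was screened for a tumour whose gap to its nearest neighbour took up most of the range over the 5 tumours (Dixon's 95% limit). Of 36 genes with at least 1 CPM somewhere, 5 were picked out, each for its highest tumour. Chance alone picks about 1 in 20 where values are normally distributed. Whether CPM values are was not tested, so the rate expected here is not known. Adgrb3 stood at 3464 CPM in BP replicate 2, against 2213 CPM in the next tumour. Tenm4 stood at 712 CPM in MP, against 287 CPM in BP replicate 1. Nxph1 stood at 390 CPM in MP+BP, against 190 CPM in MP, and Adgrl3 at 94.8 CPM in MP+BP, against 32.8 CPM in BP replicate 1. Il1rapl1 stood at 9.92 CPM in BP replicate 2, against 2.21 CPM in BP replicate 1.

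For 2 genes the difference between tumour cells and another class had one sign in all 3 tumours with BP in the label and the opposite sign in both tumours without it. The difference between the groups was not tested, nor was it worked out how many such splits chance would give. The endothelial-like value of PD+MP came from 80 cells with 579508 UMIs. Lrrc4c in SyS-like cells minus endothelial-like cells was 22.3 CPM in BP replicate 1 (24.99 against 2.68 CPM) and was positive in the other BP-labelled tumours too, whereas MP had 3.87 against 6.25 CPM and PD+MP 3.47 against 8.63 CPM. Adgrl3 in SyS-like minus macrophage-like cells was 25.7 CPM in BP replicate 1 (32.8 against 7.07 CPM), and in MP it was 19.1 against 74.0 CPM and in PD+MP 19.9 against 49.5 CPM.

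The EGFP entry of the feature list was outside all comparisons. It averaged 35.2 CPM ± 4.58 (SD, n = 5 tumours) in SyS-like cells, 3.73 ± 3.19 in stromal, 0.754 ± 0.696 in endothelial-like and 1.59 ± 0.722 in macrophage-like cells. The highest stromal value, 8.97 CPM, was in MP+BP. The sources used here do not say what the entry reports.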

How the results depend on the processing

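The 93 calls of single genes in the 3 class comparisons gave 1435 values under the alternatives, of which 1407 kept direction and call, 28 kept direction and lost the call, and 0 turned. Of the 25 genes higher in all 3 comparisons, 20 kept that under each of 15 alternatives (all but the strict count filter), and Adgrb1, Cbln4, Ptprf, Slitrk5 and Tenm1 lost it under at least 1. With the strict count filter included, 3 of the 25 (Adgrb3, Ptprd and Kirrel3) kept it under all 16 alternatives. Leaving out 1 tumour at a time gave 22 to 26 higher calls against stromal, 31 to 33 against endothelial-like and 32 to 34 against macrophage-like cells, and 0 to 1 for the biphasic label, while the lower calls stayed at 0, 1, 0 and 0. The 1 was Tenm2 without MP (log2 fold change 4.71, adjusted p = 0.0327), when 428 of all genes were called, with PD+MP the lone tumour without BP, assumed to vary like the others. Requiring at least 10 counts in every sum left 12, 4 and 12 genes to test, of which 10, 3 and 11 were higher than in stromal, endothelial-like and macrophage-like cells. DESeq2 and the fit with no low-count filter each called 1 gene lower than in stromal cells, Slitrk6, which was too scarce for the reported fit. DESeq2 called 1 gene, Grid1, higher for the biphasic label. Without the tumour as a block, 22, 29 and 33 genes were higher. Adding the 5 unnamed clusters with SyS markers, an alternative chosen after seeing the data, gave 26, 33 and 33 higher calls. These counts, and those with 1 tumour left out, stand without a share over all genes, so they show only how calls on the list held. The median log2 fold change over all genes was 0.07, 0.12 and 0.10 with the 10-count filter. It was 0.19, 0.22 and 0.27 without the block, and 0.26, 0.29 and 0.42 with the unnamed clusters. Not thinned, the shares of SyS-like cells with a UMI were 92.2% for Adgrb3, 83.0% for Ptprd, 70.9% for Tenm3, 72.9% for Kirrel3, 56.0% for Nxph1 and 4.70% for Cbln4. Depth limits the comparisons with stromal and endothelial-like cells, since a gene with 3 or fewer UMIs there has a wide ratio and the 80 endothelial-like cells of PD+MP gave 579508 UMIs.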
